A study of Mus musculus with 8 samples.

Results

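Among 55487 genes listed for each liver library of the study, 7 little-studied or noncoding transcripts are described here: AA986860, Gm37163, Gm15459, Ttc39aos1, Rn7sk, Malat1 and Neat1. The first 5 are rare transcripts whose names label a volcano plot that the study drew from these same libraries, so their counts in the 2 genotypes are what selected them. Malat1 and Neat1 were added as abundant nuclear RNAs for comparison. All 7 were found by symbol. The differences between the genotypes are therefore given as descriptions, with the value in every mouse and without a test. The annotation does not class all of them as noncoding, since AA986860 is annotated as a protein-coding gene and Gm15459 as a processed pseudogene.

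The study asked how loss of the melanocortin 1 receptor (MC1R) in hepatocytes changes the liver, and sequenced whole-liver RNA of 8 mice. The 4 animals labelled Control had the numbers 154, 159, 181 and 193, and the 4 labelled Mc1r LKO had 141, 156, 157 and 182. Controls carried floxed Mc1r alleles, and Mc1r LKO mice carried the same floxed alleles with a Cre transgene driven by the albumin promoter, which drives expression mainly in hepatocytes, so other liver cells may keep the gene. All 8 were adult males that ate a Western diet high in cholesterol, over 12 weeks, and since no chow-fed liver is among the libraries the diet is common to both groups. Mc1r itself had 0 counts in all 8 mice, a result that 3 counts or fewer could give (0.121 to 0.279 CPM, the count scaled to a common library size), so the genotypes could not be checked against it.

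The libraries held from 10773151 to 24763375 counted read pairs. All 42 markers of hepatocytes and of the other liver cell types had counts, and the 12 hepatocyte markers summed to between 91260 and 128700 CPM. Mice 182 and 159 lay farthest from the rest, by the median of their root mean square log2 CPM distances to the other mice. Mouse 159 had the lowest total. No gene of the 13400 tested passed an adjusted p of 0.05 in edgeR's quasi-likelihood test (0.0%), 901 had an unadjusted p under 0.05, and DESeq2 called 17 genes after adjustment. A looser criterion, an unadjusted p under 0.05 with a log2 fold change of at least 0.25 in size, was met by 2.64% of tested genes in the higher direction and by 2.66% in the lower direction. The libraries of the genotypes did not overlap for 2.63% of genes in the higher direction and 1.54% in the lower. By the selection, 3 of the 6 members that could be tested met the looser criterion as higher and 3 as lower, 2 were higher and 2 lower without overlap, and Neat1 was the 1 member among the 17 genes of DESeq2. The rare transcripts were picked for such differences, and Malat1 and Neat1 were added with their values known, so nothing is read from these counts.

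Long noncoding RNAs are not translated. Many, but not all, are transcribed and processed much like messenger RNAs, and many stay in the nucleus. Neat1 is the scaffold of paraspeckles, nuclear bodies that hold RNA-binding proteins and edited RNAs, and Malat1 concentrates in nuclear speckles, where splicing factors are stored. Rn7sk (7SK) is a short RNA made by RNA polymerase III that holds the elongation kinase P-TEFb in an inactive particle. It has no poly(A) tail, whereas these libraries were made by selecting polyadenylated RNA. How fully that selection captured Malat1 and Neat1 was not measured either. Processed pseudogenes are copies of messenger RNAs inserted into the genome, and their reads are hard to tell from those of the parent gene.

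The sequences that bear on how these counts can be read are shown first. Gm15459 (chr5:5781615-5783555 of GRCm38, minus strand, 1 exon) is a copy of the coding sequence of Hspa8, the constitutively expressed heat shock cognate 70 chaperone. Over its whole length of 1941 bases it was 99.74% identical to that coding sequence, with 5 differing bases, and its reading frame of 647 codons held no stop before the last codon. Positions are counted from 1 at the start codon, with the base of Hspa8 first. The differences are G114A, C414T, C549T, G1222A and C1440T, and 4 of the 5 lie at the third base of a codon. Each is shown with 20 bases on either side and the differing base in capitals, because within the copied stretch these are the only bases that tell the genes apart. The Hspa8 messenger RNA also has bases outside that stretch, and which read pairs were placed by which bases was not examined.

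Hspa8, 114: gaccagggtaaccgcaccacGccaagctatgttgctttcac
Gm15459, 114: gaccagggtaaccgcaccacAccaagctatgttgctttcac
Hspa8, 414: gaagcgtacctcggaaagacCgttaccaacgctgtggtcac
Gm15459, 414: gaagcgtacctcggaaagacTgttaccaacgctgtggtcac
Hspa8, 549: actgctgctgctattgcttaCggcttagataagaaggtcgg
Gm15459, 549: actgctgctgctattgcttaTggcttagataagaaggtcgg
Hspa8, 1222: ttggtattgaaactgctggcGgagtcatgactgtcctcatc
Gm15459, 1222: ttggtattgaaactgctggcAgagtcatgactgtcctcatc
Hspa8, 1440: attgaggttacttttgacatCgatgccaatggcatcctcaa
Gm15459, 1440: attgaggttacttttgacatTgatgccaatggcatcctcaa

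The longest stretch without a difference was 672 bases and the shortest 113 bases. Reads inside such a stretch match both genes, and read pairs with more than 1 place in the genome were not counted.

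Rn7sk (chr9:78175303-78175633 of GRCm38, minus strand) is a single exon of 331 bases. A search of the annotated transcripts found 11 other genes at least 90% identical to it over 200 or more bases, and nearly all of them end before base 245. Its bases 185 to 331 are shown, with bases 245 to 331 in capitals as the part that at most 1 of these copies reaches, and then only for its first bases.

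Rn7sk, bases 185 to 331: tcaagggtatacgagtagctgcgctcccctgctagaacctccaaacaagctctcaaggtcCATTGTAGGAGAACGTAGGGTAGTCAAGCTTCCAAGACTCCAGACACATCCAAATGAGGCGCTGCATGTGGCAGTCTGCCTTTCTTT

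All 11 copies had 0 counts in every mouse.

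Promoter windows of 300 bases, from 250 before to 50 after the start given by RefSeq on GRCm38.p6, were found for 3 of the 7 members. Those of AA986860 and Ttc39aos1 are shown with that of Yod1, a gene next to AA986860, because these are the promoters of transcripts whose CPM did not overlap between the genotypes. Capitals mark the bases that match CCAAT, the box bound by the factor NF-Y, on either strand. They also mark GGGCGG, the GC box, on either strand. The third motif in capitals is the E-box CACGTG, which reads the same on both strands. The search also covered TATAAA and, by its name alone, the palindrome that the glucocorticoid receptor recognises. On the strand printed, the CCAAT box and the GC box appear as their reverse complements in these windows. None of the marked matches overlap each other.

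AA986860, chr1:130731726-130732025, plus strand: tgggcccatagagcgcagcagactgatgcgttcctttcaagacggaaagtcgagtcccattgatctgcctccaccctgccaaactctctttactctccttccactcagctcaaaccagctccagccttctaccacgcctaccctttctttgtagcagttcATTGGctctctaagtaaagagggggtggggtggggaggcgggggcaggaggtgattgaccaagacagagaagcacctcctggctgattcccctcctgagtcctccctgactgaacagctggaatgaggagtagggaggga
Yod1, chr1:130717077-130717376, plus strand: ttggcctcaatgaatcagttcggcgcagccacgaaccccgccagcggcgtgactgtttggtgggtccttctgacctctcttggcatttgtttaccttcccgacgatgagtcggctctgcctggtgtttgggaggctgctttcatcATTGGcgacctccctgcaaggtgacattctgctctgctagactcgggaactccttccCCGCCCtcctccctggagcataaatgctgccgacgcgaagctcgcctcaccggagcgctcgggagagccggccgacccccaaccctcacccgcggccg
Ttc39aos1, chr4:109406208-109406507, minus strand: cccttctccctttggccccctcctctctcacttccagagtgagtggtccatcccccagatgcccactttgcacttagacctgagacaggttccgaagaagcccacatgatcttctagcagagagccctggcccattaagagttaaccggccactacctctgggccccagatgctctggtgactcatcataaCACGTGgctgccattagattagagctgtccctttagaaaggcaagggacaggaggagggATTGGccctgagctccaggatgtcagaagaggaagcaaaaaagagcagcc

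Each of the 3 windows held 1 CCAAT, which 37.4% of the 32851 promoter windows in the table also hold. The window of Yod1 held 1 GGGCGG, found in 35.7% of windows, and that of Ttc39aos1 held 1 CACGTG, found in 7.15%. TATAAA (13.6% of windows) and the receptor palindrome (0.475%) matched none of the 3. The window of Malat1, the third member in the table, held none of the 5 motifs. These matches describe letters only.

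AA986860 (ENSMUSG00000042510, chr1:130731976-130744622, plus strand) is a gene of 4 exons and 3640 exon bases, listed by RefSeq with the older name Sarg, and little is known of it in the liver. The Control livers held 13, 11, 12 and 20 counts in the order of mouse numbers given above. The Mc1r LKO livers held 61, 42, 32 and 38 counts. Every Mc1r LKO library lay above every Control library, also after scaling. Control mice were between 0.625 and 1.02 CPM and Mc1r LKO mice between 1.29 and 4.22 CPM. The margin was small, since the 95% counting intervals of Control mouse 159 (0.51 to 1.83 CPM) and Mc1r LKO mouse 157 (0.884 to 1.825 CPM) overlapped. The means were 0.789 ± 0.175 CPM (SD, n = 4) and 2.54 ± 1.26 CPM (SD, n = 4). The fitted log2 fold change was 1.69 ± 0.40 (SE), a 3.22-fold higher level in Mc1r LKO mice. Leaving out mouse 141, the highest, gave 1.34.

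Gm37163 (ENSMUSG00000104515, chr1:130727132-130728821, minus strand) is a single-exon model of 1690 bases of the class TEC, which holds transcribed regions with no established product. The Control livers held 10, 3, 2 and 8 counts. The Mc1r LKO livers held 11, 25, 30 and 19 counts. The genotypes did not overlap, but the margin was small, since the lowest Mc1r LKO mouse (0.760 CPM in mouse 141) was close to the highest Control mouse (0.532 CPM in mouse 154) and the 95% counting intervals of these 2 values overlapped. The mean was 0.310 ± 0.176 CPM in Control and 1.14 ± 0.371 CPM in Mc1r LKO mice (SD, n = 4 each), and the log2 fold change was 1.85 ± 0.48 (SE). Only 1 Control mouse but all 4 Mc1r LKO mice reached the level that the filter on low counts asks for, so Gm37163 entered the tested genes through the genotype in which it was high.

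**Figure D1:**
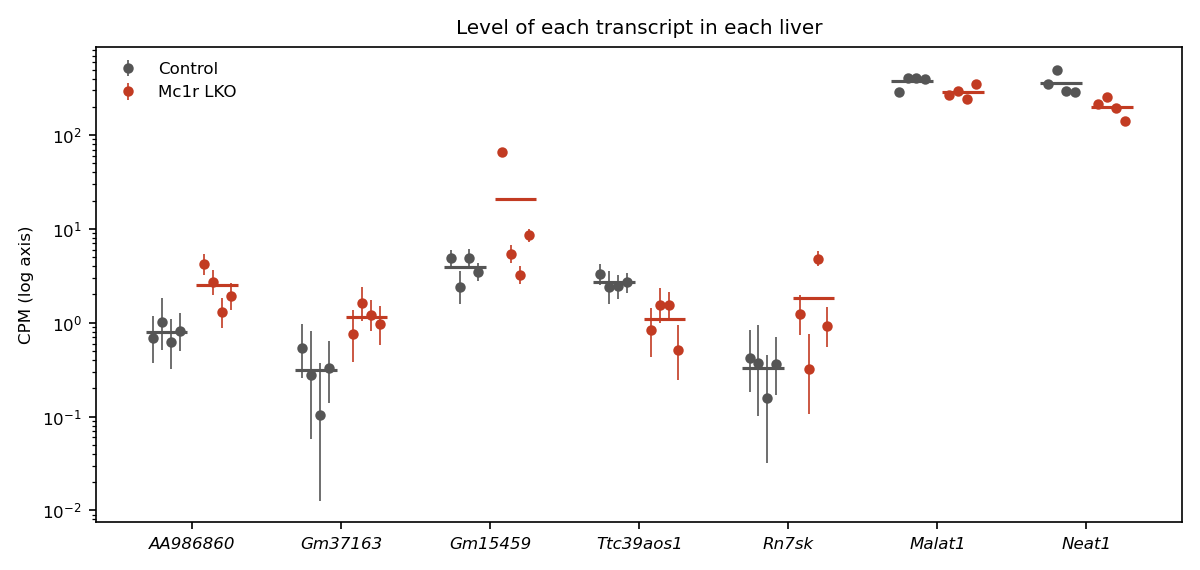
CPM of each of the 7 transcripts (log axis) in the 4 Control livers (grey) and the 4 Mc1r LKO livers (red), mice in the order of their numbers within each genotype, with exact 95% Poisson counting intervals as vertical bars and the group mean as a horizontal line. AA986860, Gm37163, Ttc39aos1 and Neat1 separate the genotypes, while single mice lie far above the others for Gm15459 (66.6 CPM) and Rn7sk (4.81 CPM).

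AA986860 and Gm37163 are neighbours on chromosome 1. They are transcribed away from each other with 3154 bases between them, and Gm37163 lies wholly inside the gene body of Pfkfb2 on the same strand, with 0 bases in its exons. Unspliced Pfkfb2 RNA that starts at the outer end of this gene model (130729253) would cover Gm37163, and the counts cannot tell these apart. The RefSeq promoter windows of Pfkfb2 lie between 130714527 and 130716298, and RNA that starts there would run away from Gm37163. Which start was used in these livers was not examined. Pfkfb2 encodes an enzyme that makes and breaks down fructose 2,6-bisphosphate, a regulator of glycolysis, and Yod1 encodes a deubiquitinase. Besides the 2 members, 3 genes within 50 kb could be tested. All 3 had higher means in Mc1r LKO mice and met the looser criterion, as did 2.64% of all tested genes in that direction. The adjusted p was 0.734 in edgeR's test for each. The window was set around members chosen on this contrast, so nothing is read from this count.

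Yod1 was between 9.20 and 14.2 CPM in Control mice and between 14.5 and 21.9 CPM in Mc1r LKO mice. The genotypes of Yod1 just missed each other, with a log2 fold change of 0.61 ± 0.17 (SE) that stayed between 0.46 and 0.75 with each mouse left out. Pfkfb2 was between 7.72 and 9.94 CPM in Control and between 9.94 and 13.1 CPM in Mc1r LKO mice, and here the ranges touched. Its log2 fold change was 0.33 ± 0.14 (SE), and the unadjusted criterion on p was met in 4 of 8 fits with 1 mouse left out, against 8 of 8 for Yod1. Gm29427, an unnamed gene model, overlaps Pfkfb2 on the same strand, exons included, so its counts are not independent of that gene and are uncertain. It held between 1 and 8 counts in Control mice and between 10 and 20 in Mc1r LKO mice. Like Gm37163, Gm29427 passed the filter on low counts mainly through the genotype in which it was high. In CPM the genotypes of Gm29427 overlapped, with a log2 fold change of 1.27 ± 0.54 (SE) and 3 of 8 such fits meeting that criterion on p.

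Farther out, the 2 tested genes between 50 and 250 kb were C4bp (complement component 4 binding protein) at 0.03 ± 0.15 and Pigr (the polymeric immunoglobulin receptor) at -0.06 ± 0.29 on the log2 scale (SE), both with an adjusted p over 0.98 in edgeR's test. By the outer ends of the gene models used for counting, the genes that met the looser criterion began no farther than 16176 bases from the start of AA986860.

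**Figure D2:**
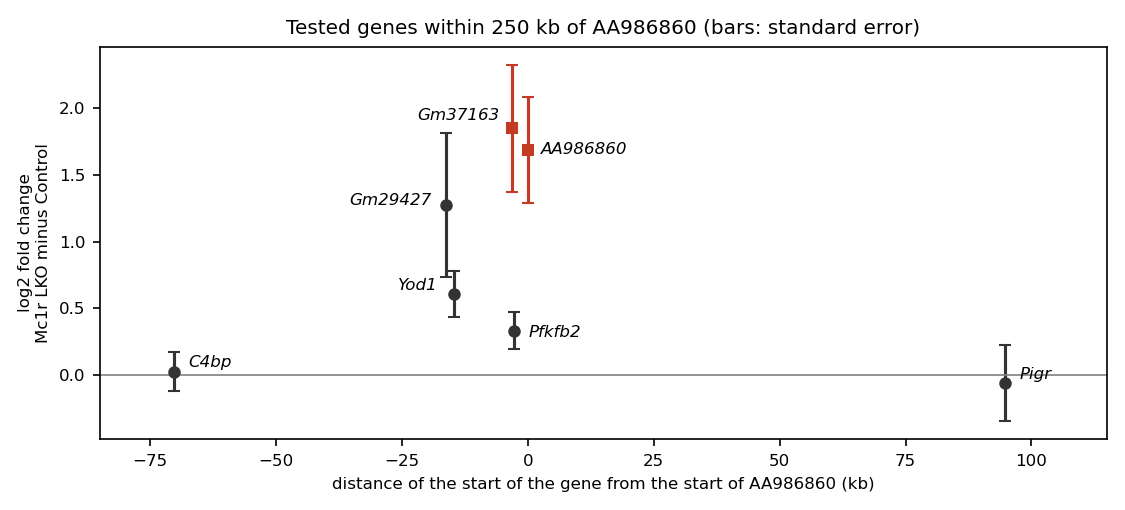
Log2 fold change (Mc1r LKO minus Control, bars are the SE derived from the edgeR test, 8 livers) of the tested genes within 250 kb of AA986860, placed by the distance in kb between the start of each gene and the start of AA986860. The 2 members (red squares) stand at 1.85 and 1.69, Gm29427, Yod1 and Pfkfb2 between 0.33 and 1.27, and C4bp and Pigr near 0. Starts are those of the gene models used for counting, and the RefSeq promoters of Pfkfb2 lie farther from AA986860.

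Ttc39aos1 (ENSMUSG00000085873, chr4:109403794-109406155, minus strand, 4 exons of 858 bases) is annotated as antisense, and RefSeq gives it the older name lincRNA-EPS, a noncoding RNA known from erythroid cells and from macrophages, where it restrains inflammatory genes. The Control livers held 62, 26, 47 and 66 counts. The Mc1r LKO livers held 12, 24, 38 and 10 counts. The raw counts overlapped, but in CPM every Mc1r LKO library lay below every Control library. Control mice were between 2.42 and 3.30 CPM and Mc1r LKO mice between 0.511 and 1.56 CPM. Here too the 95% counting intervals of the nearest values overlapped, in Control mouse 159 (1.58 to 3.54 CPM) and Mc1r LKO mouse 156 (0.999 to 2.32 CPM). The means were 2.71 ± 0.407 CPM and 1.11 ± 0.523 CPM (SD, n = 4 each). The log2 fold change was -1.28 ± 0.36 (SE), and without mouse 182, the lowest, it was -1.03.

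Ttc39a, a protein-coding gene of unclear function, is transcribed away from Ttc39aos1 on the other strand, with 467 bases between the gene models used for counting. The RefSeq promoter window of Ttc39a lies farther from Ttc39aos1, at 109415397 to 109415696, and which start was used in these livers was not examined. Ttc39a was between 7.14 and 11.9 CPM in Control mice and between 2.25 and 8.43 CPM in Mc1r LKO mice. The ranges overlapped, and the log2 fold change of -0.64 ± 0.35 (SE) did not pass the test (adjusted p = 0.787 in edgeR's test). Mouse 182 was the lowest for both Ttc39a and Ttc39aos1, and Ttc39a stood at -0.34 without it. The other tested genes within 50 kb, Eps15 (an endocytosis adaptor, 0.03 ± 0.11) and Rnf11 (an E3 ubiquitin ligase, 0.01 ± 0.10), had log2 fold changes within their SE of 0. Among the other 42 opposite-strand transcripts tested together with the gene of the same name, 21 had the sign of that gene and 21 did not.

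Markers of Kupffer cells and macrophages had lower means in Mc1r LKO mice. All 6 (Adgre1, Cd5l, Clec4f, Csf1r, Marco and Vsig4) had negative log2 fold changes with a median of -0.48, and Csf1r, the receptor for macrophage colony-stimulating factor, met the looser criterion at -0.77 ± 0.32 (SE). The others ran from Cd5l (-0.565 ± 0.301) to Marco (-0.17 ± 0.649), and none of them met that criterion. Over all genes, 6412 of 13400 tested had positive log2 fold changes and 2.66% met that criterion as lower. The summed level of the 6 markers ranged from 261 to 617 CPM in Control and from 180 to 376 CPM in Mc1r LKO mice, with mouse 182 the lowest of all 8. The ranges of this sum overlapped, and those of Ttc39aos1 did not. Mouse 182 was also the lowest for the summed endothelial, stellate and cholangiocyte markers and the highest for the hepatocyte markers. The cholangiocyte sum was mostly Spp1, with means of 94.8 CPM in Control and 123 CPM in Mc1r LKO mice. Sox9, the next highest tested marker of that list, had means of 5.81 and 5.985 CPM. Control mouse 159, with the highest Kupffer sum (617 CPM), had the lowest Control value of Ttc39aos1 (2.42 CPM). The median log2 fold change was -0.14 for 6 endothelial, -0.12 for 6 stellate and 0.37 for 4 cholangiocyte markers, with none meeting the looser criterion, and the 1 tested lymphocyte marker, Ptprc, stood at -0.43 ± 0.28. Of 12 hepatocyte markers (median 0.15), Tat met it as higher (0.88 ± 0.37) and Cyp3a11 as lower (-0.61 ± 0.23). In bulk liver, fewer cells of a type and less RNA per cell cannot be told apart, and the part of this cell type in the Ttc39aos1 result was not tested.

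Gm15459 (ENSMUSG00000100801) held 92, 26, 95 and 85 counts in Control livers. In Mc1r LKO livers it held 964, 83, 80 and 167 counts. The high group mean came from mouse 141, at 66.6 CPM (95% counting interval 62.5 to 71.0), 11.6 times the mean of the other 3 Mc1r LKO mice, which were between 3.23 and 8.53 CPM against 2.42 to 4.95 CPM in Control mice. The genotypes overlapped. The mean was 3.93 ± 1.22 CPM in Control and 20.9 ± 30.5 CPM in Mc1r LKO mice (SD, n = 4 each). The log2 fold change was 2.37 ± 0.87 (SE) over all mice and 0.53 without mouse 141.

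Hspa8 itself was not high in mouse 141. It had 12205, 6667, 18560 and 17350 counts in Control and 8827, 11877, 17086 and 27139 counts in Mc1r LKO mice (mouse 141 the lowest of its genotype). The log2 fold change of Hspa8 was 0.23 ± 0.25 (SE), with an adjusted p of 0.907 in edgeR's test. In mouse 141 the counts on Gm15459 came to 10.9% of those on Hspa8. In the other 7 mice they came to between 0.390% and 0.754%, a narrow band that held both genotypes and also mouse 182, in which Hspa8 was highest. The 7 other annotated copies of Hspa8 (at least 90% identical over 1700 or more bases) together held 18 counts in mouse 141 and between 14 and 46 in the others, or 0.204% of Hspa8 against 0.126% to 0.237%. The excess in mouse 141 was thus seen on Gm15459 and on none of these copies.

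**Figure D3:**
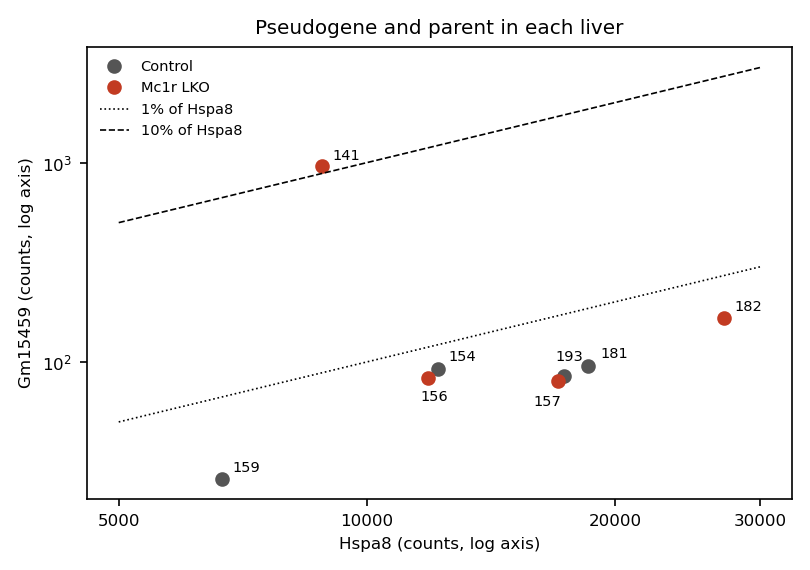
Counts on Gm15459 against counts on its parent Hspa8 (both log axes) in the 4 Control livers (grey) and the 4 Mc1r LKO livers (red), labelled by mouse number, with lines at 1% (dotted) and 10% (dashed) of Hspa8. Mouse 141 lies above the 10% line at 10.9%, and the other 7 mice lie below the 1% line.

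Rn7sk (ENSMUSG00000065037) held 8, 4, 3 and 9 counts in Control livers. In Mc1r LKO livers it held 18, 5, 119 and 18 counts. Mouse 157 stood highest at 4.81 CPM (95% counting interval 3.98 to 5.75), 5.79 times the mean of the other 3 Mc1r LKO mice, and mouse 156 at 0.325 CPM lay inside the Control range of 0.156 to 0.425 CPM. The mean was 0.330 ± 0.119 CPM in Control and 1.82 ± 2.02 CPM in Mc1r LKO mice (SD, n = 4 each). Rn7sk was not kept by the filter on low counts, since 0 Control mice and 3 Mc1r LKO mice reached its level, and is the 1 member without a place among the tested genes. In a fit of all genes with at least 1 count its log2 fold change was 2.49 ± 0.66 (SE), and 1.33 without mouse 157.

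Other RNAs that normally lack a poly(A) tail (small nuclear, nucleolar and cytoplasmic RNAs) were nearly absent, as 2 of the 46 genes found for this list, Rn7sk among them, could be tested. Those were Bc1 (0.11 ± 0.47) and Snord104 (0.24 ± 0.26, log2 fold change with SE), and neither met the looser criterion. Summed without Rn7sk, the list came to 3.06 to 5.86 CPM in Control mice and to 4.04, 4.74 and 5.32 CPM in mice 182, 156 and 141. Mouse 157 was again the highest, at 7.63 CPM. Rpph1, the RNA of RNase P and likewise a product of RNA polymerase III, was singled out after its values were seen: it had 33 counts in mouse 157, 3 in mouse 181 and 0 in the other 6. Replication-dependent histone messenger RNAs, which also end without a poly(A) tail, had a median log2 fold change of 0.02 over 9 tested genes. Hist1h4h was higher (0.91 ± 0.39) and Hist1h4i lower (-0.88 ± 0.36) by the looser criterion, and Hist1h1d stood at -0.93 ± 0.68 and Hist3h2a at 0.32 ± 0.36. How much RNA without a tail each library carried was not measured, and its part in the Rn7sk counts was not tested.

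Proteins of the 7SK particle and the factors it controls made up a list of 29 genes. All 29 were tested, 15 had positive log2 fold changes, none met the looser criterion and the median was 0.01, beside -0.01 over all genes. Hexim1, which inhibits P-TEFb when bound to 7SK, stood at 0.09 ± 0.16, the kinase Cdk9 at -0.01 ± 0.09, the 7SK-binding protein Larp7 at -0.10 ± 0.13 and the capping enzyme Mepce at 0.04 ± 0.09 (log2 fold change with SE). The extremes were Ell2 (0.30 ± 0.18) and Hexim2 (0.29 ± 0.26) at one end, and Pou2f1 (-0.31 ± 0.23) and Snapc4 (-0.29 ± 0.19), which act at the promoters of small RNAs, at the other. Near Rn7sk on chromosome 9, C920006O11Rik (-0.30 ± 0.25), Ick (-0.24 ± 0.12) and Gsta4 (-0.11 ± 0.25) did not pass the test.

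Malat1 (ENSMUSG00000092341, chr19:5795690-5802672, minus strand, 6983 bases) held 5453, 4408, 7735 and 9792 counts in Control livers. In Mc1r LKO livers it held 3868, 4519, 6071 and 6801 counts. Scaled, 3 Control mice lay between 399 and 410 CPM and mouse 154 at 290 CPM, among the Mc1r LKO mice, which ranged from 245 to 347 CPM. The genotypes overlapped through mouse 154. The mean was 375 ± 57.2 CPM in Control and 288 ± 44.1 CPM in Mc1r LKO mice (SD, n = 4 each), and the log2 fold change was -0.38 ± 0.14 (SE), or -0.48 without mouse 154.

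Neat1 (ENSMUSG00000092274, chr19:5824708-5845478, minus strand, 20771 bases) lies 22035 bases from Malat1. It held 6630, 5367, 5746 and 7074 counts in Control livers. In Mc1r LKO livers it held 3133, 3936, 4783 and 2756 counts, each below every Control count. In CPM, Control mice were between 288 and 499 CPM and Mc1r LKO mice between 141 and 256 CPM, again without overlap. The means were 360 ± 96.9 CPM and 202 ± 48.0 CPM (SD, n = 4 each). The log2 fold change was -0.84 ± 0.21 (SE), a level 1.78-fold lower in Mc1r LKO mice. The mouse that drew the Control mean up most was 159, and without it the log2 fold change was -0.63. Mouse 159 was also the highest for the summed Kupffer cell markers, and mouse 182 was the lowest of all for both. Mouse 193, next highest for the markers at 405 CPM, had the lowest Control level of Neat1 (288 CPM). The part of this cell type in the Neat1 result was not tested.

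The small genes annotated inside Malat1 and Neat1 on their strand (Gm27694, Gm27505, Gm27533 and Gm28006) had 0 counts in all mice and cover 86 and 384 bases of the 2 transcripts. Protein-coding genes around the pair had log2 fold changes close to 0, with Ltbp3 at -0.10 ± 0.36, Frmd8 at -0.14 ± 0.13 and Slc25a45 at -0.01 ± 0.19 (SE), and Frmd8os, which starts 144 bases from Neat1 on the other strand, stood at 0.36 ± 0.59. None of these passed the test. Malat1 gave between 0.821 and 1.38 times the CPM of Neat1 in Control mice. In Mc1r LKO mice this ratio was 1.23, 1.15 and 1.27 in mice 141, 156 and 157 and 2.47 in mouse 182. Divided by all annotated exon bases (6983 for Malat1 and 20771 for Neat1), Malat1 stood above Neat1 in every mouse, by 2.44 to 7.34 times. Where along Neat1 the reads lay was not examined, so this ranking holds for the full annotated lengths alone.

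Genes for paraspeckle proteins had values around 0. Of 29 such genes, all tested, 15 had positive values, the median log2 fold change was 0.01, and the core proteins Nono (0.12 ± 0.09), Sfpq (0.01 ± 0.13) and Pspc1 (0.23 ± 0.22) did not meet the looser criterion. Rbm4b, an RNA-binding splicing regulator, was the 1 gene of the list that did (0.44 ± 0.14, SE), and Ahdc1 (-0.18 ± 0.15) and Cpsf6 (-0.16 ± 0.13) were the lowest. Among 31 nuclear speckle and splicing genes, partners of Malat1 in the nucleus, the median was -0.05, with Srrm2, a scaffold of speckles, lower (-0.30 ± 0.12) and the splicing factor Srsf7 higher (0.26 ± 0.11) by the looser criterion. Clk2 (-0.24 ± 0.16) and Srsf4 (0.14 ± 0.09) came next.

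Other nuclear long noncoding RNAs were tested for 10 genes beside the 2 members. The median was -0.06, 3 had positive values, none met the looser criterion as higher, and Firre, which is transcribed from the X chromosome and shapes nuclear organisation (-0.32 ± 0.12), and Pvt1, the neighbour of Myc (-0.67 ± 0.30), met it as lower. Airn had the lowest value (-1.11 ± 0.66) and Kcnq1ot1 (0.37 ± 0.34) and Ftx (0.20 ± 0.22) the highest. Host genes of small nucleolar RNAs had a median of 0.11 over 15 genes, with Snhg8 higher (0.36 ± 0.12) by the looser criterion, Snhg3 at 0.40 ± 0.19, and Snhg11 (-0.35 ± 0.25) and Snhg17 (-0.33 ± 0.15) lowest. Genes of nuclear RNA decay, which trim or destroy many noncoding transcripts, had a median of 0.02 over 23 genes. Exosc2, a subunit of the RNA exosome, met the looser criterion as higher (0.34 ± 0.13), and Zfc3h1 (-0.31 ± 0.14) and Pabpn1 (-0.27 ± 0.11), which target polyadenylated nuclear RNAs to the exosome, met it as lower. Exosc8 (0.23 ± 0.15) was next highest.

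**Figure D4:**
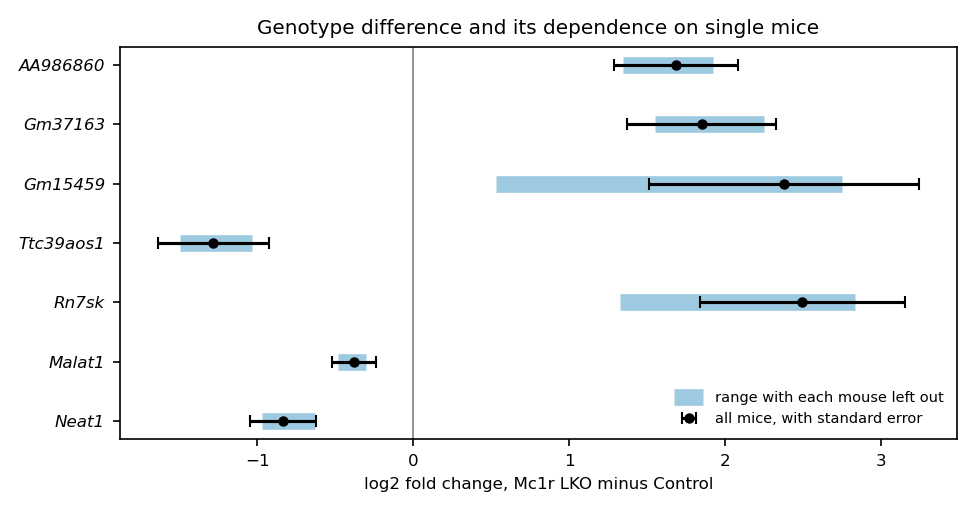
Log2 fold change (Mc1r LKO minus Control) of the 7 transcripts over all 8 livers (black points, bars are the SE derived from the edgeR test) with the range of the values when each mouse is left out in turn (blue). The ranges keep their sign in all 7, and those of Gm15459 (0.53 to 2.75) and Rn7sk (1.33 to 2.83) are the widest.

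The classes to which the rare transcripts belong were described without the members. Of 98 tested TEC genes, the class of Gm37163, 1.02% met the looser criterion as higher and 7.14% as lower, with a median log2 fold change of -0.18. Processed pseudogenes, the class of Gm15459, showed the opposite order among 185 genes, with 4.86% higher, 0.541% lower and a median of 0.17. Intergenic long noncoding RNA genes (246 tested) had 0.813% higher and 5.28% lower with a median of -0.05, and antisense RNA genes (231 tested), the class of Ttc39aos1, had 1.30% and 3.03% with a median of -0.04. Protein-coding genes (12283 tested) stood at 2.69% and 2.47% with a median of -0.01. Grouped by name, 650 genes called Gm plus a number had 2.46% higher and 3.69% lower, 434 names ending in Rik 1.38% and 3.69%, and 51 opposite-strand names 0.0% and 5.88%, with medians of -0.04, -0.05 and -0.05. When single mice were left out, the median stayed between -0.29 and -0.13 for TEC genes and between 0.14 and 0.22 for processed pseudogenes, while their shares of called genes ranged from 2.52% to 5.88% lower and from 0.976% to 8.02% higher.

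The 7 transcripts differed widely in level and in how firmly it was measured. Per kilobase of the full annotated exon length, Malat1 averaged 53.8 and 41.3 CPM in Control and Mc1r LKO mice and Neat1 17.3 and 9.71 CPM. The rare transcripts were lower in Control mice, with Ttc39aos1 at 3.16 and 1.29, Gm15459 at 2.02 and 10.8, Rn7sk at 0.997 and 5.51, AA986860 at 0.217 and 0.699, and Gm37163 at 0.184 and 0.676 CPM per kilobase. In Mc1r LKO mice the mean of Gm15459, raised by mouse 141, was above that of Neat1. AA986860 and Gm37163 do not differ beyond their spread on this scale. All 7 together made up 0.0450% to 0.0914% of a library, most of it Malat1 and Neat1.

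For the abundant pair, counting error was small beside the spread between mice. The coefficient of variation among Control mice was 26.9% for Neat1 and 15.2% for Malat1, whereas counting alone gives 1.27% and 1.21%. For Gm37163 and AA986860 counting alone gives 41.7% and 26.7% in Control mice, beside observed values of 56.7% and 22.2%. In Mc1r LKO mice counting alone gives 21.7% and 15.2% for these 2 transcripts, beside larger observed values of 32.5% and 49.5%. The within-genotype SD of log2 CPM was compared with that of the 500 tested genes nearest in level. Gm15459 (SD 1.38, 99.0th percentile), Rn7sk (1.08, 93.8th) and Neat1 (0.36, 91.0th) varied more between mice of 1 genotype than most such genes, Malat1 (0.23, 75.6th) less so, and Ttc39aos1 (0.51, 52.6th), AA986860 (0.53, 52.0th) and Gm37163 (0.55, 34.6th) were near or below the middle.

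**Figure D5:**
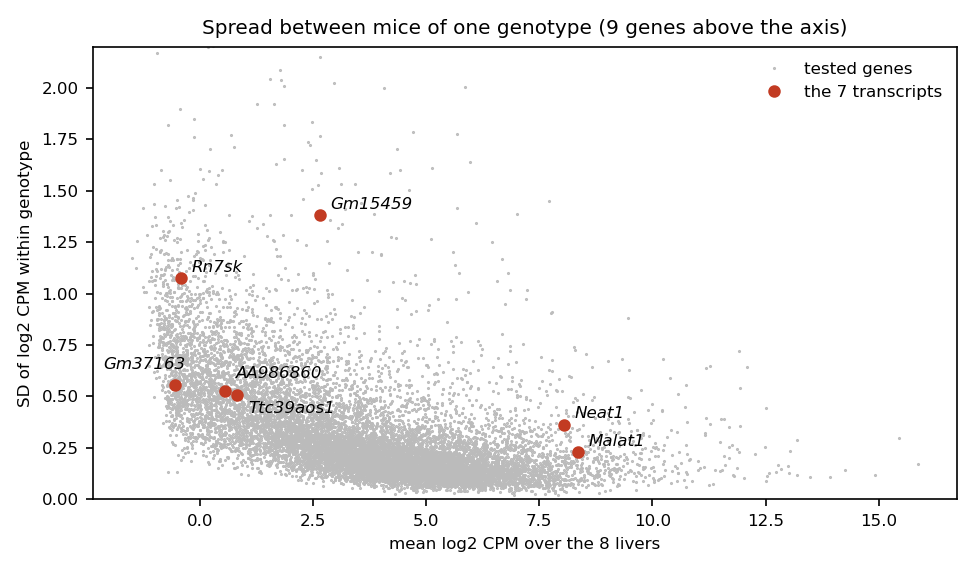
SD of log2 CPM between mice of 1 genotype (pooled over Control and Mc1r LKO) against mean log2 CPM over the 8 livers for the 13400 tested genes (grey) and the 7 transcripts (red). Gm15459 at 1.38, Rn7sk at 1.08 and Neat1 at 0.36 lie high for their level, and the other 4 transcripts lie within the cloud.

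Once the genotype means were removed, the genes whose log2 CPM followed each transcript most closely over the 8 mice were found by the root mean square difference, a description that rests on depth and scaling shared by all genes. These genes are the nearest of the 13400 tested over only 8 mice, so nothing is read from which they are. For Neat1 they were Coro2b (0.06), Dusp1, an immediate early phosphatase (0.07), and Gm11967 (0.09), against a size of 0.31 for Neat1 itself. For Malat1 they were Prpf3, Gsap and Hagh (0.04 to 0.05, against 0.20). Ttc39aos1 lay nearest to Lacc1, Dixdc1 and Tlr12 (0.14 each, against 0.44), AA986860 to Olfr1372-ps1, BC051226 and Spata6 (0.15 to 0.17, against 0.46), and Gm37163 to Ptger4, Gm13341 and Il22ra1 (0.14 to 0.21, against 0.48). Rn7sk (nearest Tcte2, Bcl6 and Lrrc4c) and Gm15459 (Sema5a and Npl) had no close neighbour, with differences of 0.43 to 0.55 and 0.63 to 0.64 against 0.93 and 1.20.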

How the data were processed

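The authors trimmed the reads with Trim Galore 0.6.6, aligned them with STAR 2.7.6a and counted read pairs per gene with featureCounts 2.0.1, and deposited 1 table of raw counts per mouse, with no normalization. The submitters' notes and the table headers name GRCm38, and the headers add Ensembl release 102, strand option 2 and no counting of pairs with several places or genes. The paper's methods write GRCh38. Libraries were made with a stranded poly(A) kit.

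Genes with low counts were removed by filterByExpr (minimum count 10, minimum total 15) and the deposited counts of the remaining 13400 were scaled by TMM. The genotypes were compared by edgeR's quasi-likelihood test (edgeR 4.0.16 in R 4.3.3), and p-values were adjusted over these genes by the Benjamini-Hochberg method. Rn7sk came from the same fit on all genes with at least 1 count. CPM use TMM library sizes for all genes, log2 CPM add a prior count of 2 and fitted fold changes use 0.125. Each SE of a log2 fold change was derived from the test, as the size of that value divided by the square root of its F statistic. Simulated counts served to check the procedure. Copies of a sequence were sought with blastn 2.17.0 in GENCODE transcripts of GRCm38, which also gave the gene classes. Sequences of promoters came from RefSeq, and opposite-strand names were kept where the partner lies on the other strand of the same chromosome. Counting intervals are exact Poisson intervals and, like the 3 counts allowed by a count of 0, cover counting error only.

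The mice are separate animals by number, and no pair within a genotype agreed within sampling noise (smallest chi-square per degree of freedom 11.8). No batch is named. The members, gene lists and rules were chosen with earlier results of these data known. Named are the 7 members, tested genes within 50 kb of them, the 2 highest and 2 lowest of each list with any gene meeting the looser criterion, and the 3 nearest profiles, except for genes not reported here; for AA986860 the window was widened to 250 kb, and core partner proteins and Rpph1 were named, after the values were seen. Alternatives were DESeq2 1.42.0, RLE and upper quartile normalization, library size alone, no filter, prior counts of 2 and 0.5 and leaving out each mouse.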

Additional observations from a re-analysis of the deposited data

Results flagged for a closer look

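In groups of 4, a mouse was marked when its gap to the nearest other mouse exceeded Dixon's 95% limit as a share of the range of the group. Of 14 groups (7 transcripts in 2 genotypes), 2 were marked, and chance marks about 1 group in 20, or 0.7 of 14. Gm15459 in Mc1r LKO mouse 141 stood at 66.6 CPM, with a gap of 0.916 of the range. Malat1 in Control mouse 154 stood at 290 CPM, below the other Control mice, with a gap of 0.912 of the range.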

How the results depend on the processing

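All 7 log2 fold changes kept their sign under every alternative. With each mouse left out in turn they ranged from 1.34 to 1.92 for AA986860, 1.55 to 2.25 for Gm37163, 0.53 to 2.75 for Gm15459, -1.49 to -1.03 for Ttc39aos1, 1.33 to 2.83 for Rn7sk, -0.48 to -0.30 for Malat1 and -0.97 to -0.63 for Neat1. Other normalizations, DESeq2, prior counts and no filter moved each member by less than its SD between mice of 1 genotype. Adjusted calls numbered 0 under each left-out mouse, 17 with DESeq2 and 1 (Fkbp5) without the filter, and the looser criterion was met by 711 genes, 606 to 931 with a mouse left out and 1140 without the filter, which tests more genes. With library size alone the median of all genes was -0.06 and 25.3% of calls were higher, against 49.8% with TMM, and the cause was not tested. Without the filter the median was 0.88 for small RNAs without a tail and -0.47 for histones, where genes of few counts enter. With a mouse left out, medians ranged from -0.112 to 0.043 for the 7SK list (lowest without mouse 182). Other list medians that changed sign under an alternative moved by less than their SD between mice, whereas these shifts of the 7SK and histone medians were larger than it. No paired analysis was possible because the mouse numbers are not shared between the genotypes. At 2 to 30 counts per mouse, as for Gm37163, counting error limits what can be seen.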
